A study of Mus musculus with 8 samples.

Results

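HGF-stimulated MLP-29 cells harvested late, after 24 h, were compared with the same line harvested early, after 1 h. MLP-29 is a mouse liver progenitor cell line. The 4 arrays labelled HGF 24 h (replicates a and b) and HGF 1 h (replicates a and b) were taken from the 8 arrays of the series, and a gene entered when its probe had a detection p-value under 0.05 on both arrays of either group. These were 7991 of the 16593 genes with a named probe. Both groups received recombinant HGF after 1 week of progressive starvation, in 2% bovine serum, and differed by the labels in the time in HGF alone. The other 4 arrays were 2 of cells in control medium, for which no time of their own is given, and 2 of cells after 6 h of HGF. They entered the fit to help estimate the spread but not the comparison. RNA was read on Illumina Mouse8 V2 bead arrays, which measure 1 colour. The labels say that the experiment was done again to give biological replicates, which carry the letters a and b, but not whether a letter stands for 1 repeat across all groups. Each p-value rests on 2 such repeats of 1 cell line.

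Hepatocyte growth factor is the ligand of Met, a receptor tyrosine kinase. Active Met signals through the Ras and MAP kinase cascade, through PI3 kinase and through STAT3, and in epithelial cells it is known for a programme of dissociation, migration and branching in which motility, proteolysis and growth are coupled. Growth factor stimulation in general sets off immediate early genes, whose transcription needs no new protein synthesis and which encode transcription factors, feedback inhibitors and secreted signals with short-lived mRNAs. Genes of the cell division machinery belong to later phases of such a response.

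The signal of a probe is given below as background-corrected intensity plus 16, quantile normalised, in arbitrary units. Differences are on the log2 scale, 24 h minus 1 h, ± the standard error (SE) of the fit, with 2 arrays per group. A gene is called higher or lower at an adjusted p-value under 0.05 (limma, Benjamini-Hochberg over all 7991 genes). Of 25697 probes, 11569 to 11893 were detected per array. The 2 arrays of 24 h correlated at 0.993 across genes and the 2 arrays of 1 h at 0.991, while arrays of the 2 groups correlated at 0.968 to 0.977. Among cell type markers, 10 of 13 biliary and progenitor markers on the array were detected on both arrays at each of the 2 times. The others, Prom1, Dlk1 and Onecut1, were detected on no array of the series. The simple epithelial keratin Krt8 had 49951 and 49699.5 after 24 h and 41658 and 50981 after 1 h. Of 15 hepatocyte markers, 1 was detected on both arrays of a group, the transcription factor Hnf4a, and the defining products Alb and Afp were detected on no array. None of 10 endothelial and 14 stellate or fibroblast markers passed, and of 11 haematopoietic markers Cd14 and Vav1 did, whereas the defining Ptprc was undetected throughout. In RNA from whole cultures, fewer cells expressing a gene and less RNA per cell cannot be told apart.

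At 24 h, 332 genes were higher (4.15% of those tested) and 411 were lower (5.14%) than at 1 h. The differences downward were the steeper ones. A difference of at least 2-fold was found for 177 of the lower genes and 74 of the higher ones, and of at least 8-fold for 19 lower genes and 1 higher gene, with genes undetected in 1 group counted at their lower bound. All 743 called genes had both 24 h arrays beyond both 1 h arrays, but they were called on these same arrays, so this adds no support. The median over all genes tested was 0.04. A fit with a replicate block called 569 higher and 659 lower, and all 743 were among them. The counts depended on each of the 4 arrays compared. They were 39 higher and 130 lower without 24 h array a, 64 and 150 without 24 h array b, 66 and 142 without 1 h array a, and 103 and 264 without 1 h array b, in fits where the lone array of a group is assumed to vary like the others. Detection changed too: 71 genes were detected on both arrays at 24 h and on neither at 1 h, and 100 genes the other way round.

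**Figure D1:**
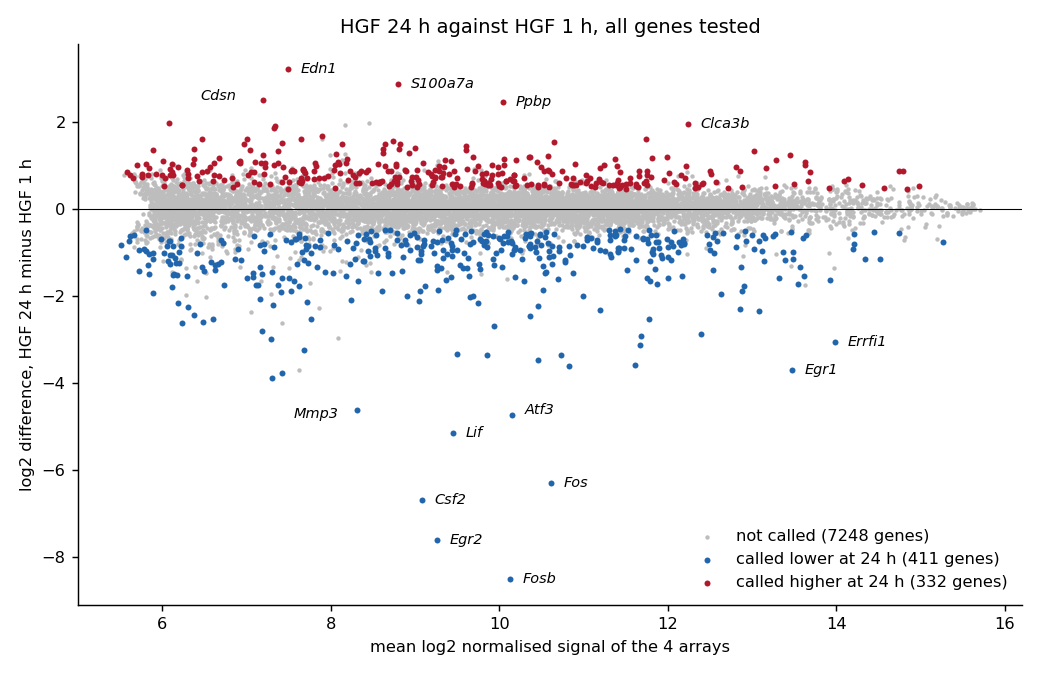
Log2 difference (24 h minus 1 h) against the mean log2 signal of the 4 arrays for each of the 7991 genes tested, with 411 genes called lower at 24 h in blue, 332 called higher in red and the rest in grey. The deepest falls, Fosb, Egr2, Csf2 and Fos, lie below -6, while the highest rise, Edn1, is at 3.20.

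**Figure D2:**
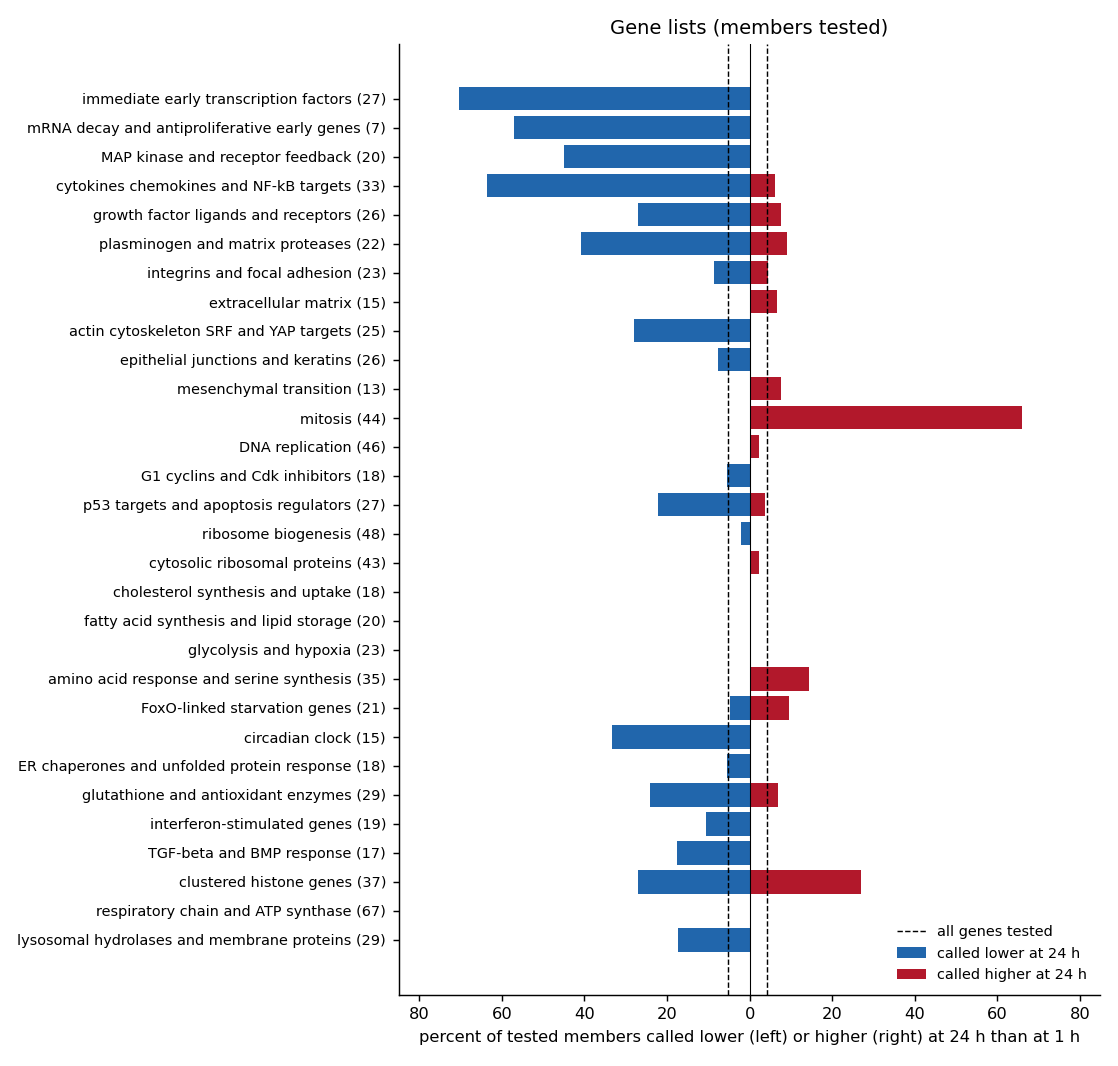
Percent of the tested members of each of 30 gene lists called lower (bars to the left) or higher (bars to the right) at 24 h than at 1 h, with the number tested in brackets. Dashed lines give the share of all genes tested, 5.14% lower and 4.15% higher. Early transcription factors and cytokine genes stand on the lower side, and mitosis genes on the higher side.

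For each list below, 5.14% lower and 4.15% higher are the shares of all genes tested. Of the 30 lists, the immediate early transcription factors had the largest share of members called. Of 27 tested members, 19 were lower at 24 h (70.4%), none was higher, and all 27 differences were below 0. The list median was -1.49. Fosb, a Fos family subunit of the AP-1 factor, had signals of 55.2 and 62.7 in 24 h cells, against 23164 and 19640.1 in 1 h cells, a difference of -8.50 ± 0.30 (adjusted p = 8.50e-06). At 24 h it was detected on 1 of 2 arrays. Fos, the founding AP-1 subunit of that family, read 238 and 131 at 24 h, against 12332 and 15515 at 1 h (-6.29 ± 0.44, adjusted p = 2.77e-04). For both genes the arrays of the 2 times lay far apart and, as in every called gene, did not overlap. Atf3, a stress-inducible partner of AP-1 factors, had 147 and 333 after 24 h, against 5836 and 5839.7 after 1 h (-4.72 ± 0.48, adjusted p = 0.00172).

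The promoters of these 3 genes are shown because their transcripts had the largest falls among early factors whose start could be assigned to 1 position. Each line holds the 250 bases before the transcription start in the RefSeq annotation of GRCm38.p6, written 5′ to 3′ along the strand of the gene. Capitals mark TGACG, the core letters of the cAMP response element, on the strand shown or, as CGTCA, on the other one.
Fosb (chr7:19310046-19310295, minus strand): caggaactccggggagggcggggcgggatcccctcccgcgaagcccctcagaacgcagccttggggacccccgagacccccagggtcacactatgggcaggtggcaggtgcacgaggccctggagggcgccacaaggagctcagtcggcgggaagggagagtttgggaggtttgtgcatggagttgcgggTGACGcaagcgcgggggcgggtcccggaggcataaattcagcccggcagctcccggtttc
Fos (chr12:85473640-85473889, plus strand): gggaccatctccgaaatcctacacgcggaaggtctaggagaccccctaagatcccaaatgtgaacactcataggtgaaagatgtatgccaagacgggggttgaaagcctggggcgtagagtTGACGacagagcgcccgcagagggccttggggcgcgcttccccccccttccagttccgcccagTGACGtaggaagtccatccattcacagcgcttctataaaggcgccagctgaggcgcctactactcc
Atf3 (chr1:191183334-191183583, minus strand): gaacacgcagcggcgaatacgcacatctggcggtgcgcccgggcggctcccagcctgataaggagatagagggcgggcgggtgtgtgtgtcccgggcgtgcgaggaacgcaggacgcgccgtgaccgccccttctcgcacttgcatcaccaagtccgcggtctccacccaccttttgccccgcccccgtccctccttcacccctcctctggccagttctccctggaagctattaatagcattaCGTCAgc
TGACG was found in the windows of 12 of the 16 early transcription factor genes called lower that had a promoter in the table (75%), against 31.8% of the 6571 genes tested that had one and 19.8% of all 27025 genes of the table. The CArG box, the serum response factor motif, was present in 2 of the 16, against 1.48% of the genes tested. Both strands were searched, a gene counted when any of its starts matched, and neither TGACG nor the CArG box contains the other. A match is a run of letters and not a bound site.

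Zinc finger factors of the Egr family fell too. Egr2 read 45.5 and 42.3 at 24 h, undetected on both arrays, against 8338 and 8699 at 1 h, and was at least 148-fold lower (adjusted p = 2.52e-07). Egr1 had 2540.2 and 3905 at 24 h, against 40066 and 41658 at 1 h (-3.70 ± 0.22, adjusted p = 1.47e-04). Unlike Egr2, Egr1 was still detected on both arrays late. Csrnp1, a nuclear protein induced by axin, went with them (208 and 252 at 24 h, against 1942 and 2715 at 1 h). Among Jun subunits, Jun had 56.3 and 79.1 at 24 h, where 1 of 2 arrays detected it, against 481 and 822 at 1 h, and Junb had 3638 and 2863 at 24 h, against 10560.3 and 14871 at 1 h. Their differences were -3.23 ± 0.29 and -1.96 ± 0.23. Fosl1, the Fos family member known to accumulate later than Fos, had 328 and 506 at 24 h, against 1984 and 1648 at 1 h (-2.15 ± 0.21). The transcriptional repressor Bhlhe40 and the early response protein Ier3 were also lower, with log2 differences of -1.88 ± 0.24 and -1.64 ± 0.21. Myc, the growth-promoting factor, read 226 and 318 at 24 h and 413 and 477 at 1 h. It was not called in the fit without a block (adjusted p = 0.0844), but was in the fit with a replicate block (adjusted p = 0.00833). The count of lower factors was 13 without 24 h array a or 1 h array a, and 23 with the block.

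Genes of mRNA decay, whose products shorten the life of early transcripts, formed 1 list with antiproliferative early genes, lower in 4 of 7 tested members. Zfp36, which binds AU-rich elements in cytokine and early gene mRNAs, had 554 and 509.7 at 24 h, against 4746 and 6182 at 1 h (-3.35 ± 0.24, adjusted p = 3.71e-04). Its relative Zfp36l1 had a smaller difference, -0.91 ± 0.15, at 12736 and 14623 after 24 h and 24306 and 27048 after 1 h. The endoribonuclease Zc3h12a (-1.25 ± 0.25) and the antiproliferative Tob1 (-0.98 ± 0.12) were also lower at 24 h. The count was 2 without 24 h array a or without 1 h array b, where the call of Zfp36l1 was lost (adjusted p of 0.0596 to 0.0806), and the call of Zc3h12a also ended without 1 h array a.

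Feedback inhibitors of receptor and MAP kinase signalling fell in 9 of 20 tested members (45%, against 5.14% of all genes). None was higher, and the median was -0.64. Errfi1, an inhibitor of the EGF receptor family, was at 5166 and 6129 in 24 h cells, against 49409.8 and 43633 in 1 h cells (-3.04 ± 0.16, adjusted p = 6.49e-05). Dusp6, the phosphatase that inactivates ERK in the cytoplasm, had 2997 and 4894 at 24 h, against 18191 and 21041 at 1 h (-2.35 ± 0.27, adjusted p = 0.00354). Both remained far above the detection limit late. In control cells Errfi1 had 3389.4 and 4282.5, below both 24 h arrays. Dusp6 had 3089.5 and 4583 there, within the range of its 24 h arrays. Phlda1, a target of ERK signalling, was lower with a log2 difference of -2.86 ± 0.12, the nuclear phosphatase Dusp1 with -1.55 ± 0.19 and Socs3, an inhibitor of cytokine receptor signalling, with -1.20 ± 0.19. Spry4, a Sprouty inhibitor of the Ras pathway, was dim at 72.2 and 59.7 after 24 h and 66.6 and 78.8 after 1 h, and passed no test (adjusted p = 0.783). Without 24 h array a, 24 h array b or 1 h array a, 5 members of the list were called lower, and without 1 h array b 6. The call of Socs3 ended without 24 h array b (adjusted p = 0.0684).

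The receptor of HGF itself did not pass the test: Met read 295 and 261 at 24 h and 289.9 and 209 at 1 h, a difference of 0.17 ± 0.23 with a 95% interval of -0.37 to 0.71 (adjusted p = 0.691). The related receptor Mst1r, which binds macrophage stimulating protein, was in contrast at 361 and 408 after 24 h, against 2369 and 2605 after 1 h (-2.69 ± 0.13, adjusted p = 4.06e-05). Of 26 tested growth factor and receptor genes, 7 were lower and 2 higher at 24 h. Hbegf, an EGF receptor ligand shed from the membrane, had 1034 and 1165 at 24 h, against 8803 and 10549 at 1 h (-3.13 ± 0.19). Another EGF receptor ligand, Ereg, was undetected at 24 h (32.8 and 36.1) and detected at 1 h (174 and 135), at least 2.66-fold lower. Pdgfb, a chain of platelet-derived growth factor, was lower with a log2 difference of -2.53 ± 0.15, or -1.55 when its probes were averaged. The natriuretic peptide gene Nppb was undetected at 24 h and at least 10.6-fold lower.

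The steepest rise of all genes also belonged to this group. Edn1, which encodes the vasoconstrictor peptide endothelin 1, had 608 and 487 in 24 h cells, against 43.2 and 81.0 in 1 h cells, where 1 of 2 arrays detected it (3.20 ± 0.28, adjusted p = 0.00102). Control cells had 474 and 429.5 and 6 h cells 648 and 508, so the 1 h arrays alone were low. Igfbp3, a carrier of insulin-like growth factors, was the other member called higher, at least 1.41-fold. The lower count of the list was 5 to 7 without any 1 array and 10 with a replicate block. The higher count was 1 without 24 h array a or 1 h array a.

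Cytokines, chemokines and NF-kB targets were lower at 24 h in 21 of 33 tested members and higher in 2. The list median was -1.17, or -1.07 with undetected genes at their bound. Csf2, the granulocyte and macrophage colony stimulating factor, read 37.8 and 75.3 at 24 h, detected on 1 of 2 arrays, against 5886 and 5084 at 1 h (-6.68 ± 0.34, adjusted p = 6.49e-05). Lif, an IL-6 family cytokine that acts through STAT3, had 109 and 128 at 24 h, against 3684 and 4739 at 1 h (-5.15 ± 0.17, adjusted p = 7.56e-06). Tnfaip3, the ubiquitin-editing inhibitor of NF-kB, had 1021 and 1387 at 24 h, against 10085 and 8061 at 1 h. As in every called gene, in none of these 3 did an array of 1 time reach the range of the other. Ptgs2, the inducible cyclooxygenase, and the neutrophil chemokine Cxcl2 were detected on both 1 h arrays and on no 24 h array, and were at least 3.36-fold and 2.04-fold lower.

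Against this direction stood Ppbp and Il24. Ppbp, a platelet chemokine gene of the CXC group, read 3934 and 1544 at 24 h, against 396 and 513 at 1 h (2.45 ± 0.40, adjusted p = 0.0119). Il24, a cytokine of the IL-10 family, had 306 and 144 at 24 h, against 79.1 and 70.6 at 1 h (1.49 ± 0.33, adjusted p = 0.0312). At 6 h Il24 stood far above either time, at 3409 and 3264. Replicate a carried the higher value of both genes at 24 h. Without 24 h array a the differences were 1.43 for Ppbp and 0.94 for Il24, and neither was called (adjusted p of 0.153 and 0.0961). The call of Ppbp also ended without 1 h array a or 6 h array b, and that of Il24 without either 1 h array. The number of members called lower was 10 without 24 h array a, 11 without 24 h array b, 7 without 1 h array a and 14 without 1 h array b, and the number called higher was 0 without 24 h array a or 1 h array a and 1 without 1 h array b or 6 h array b.

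**Figure D3:**
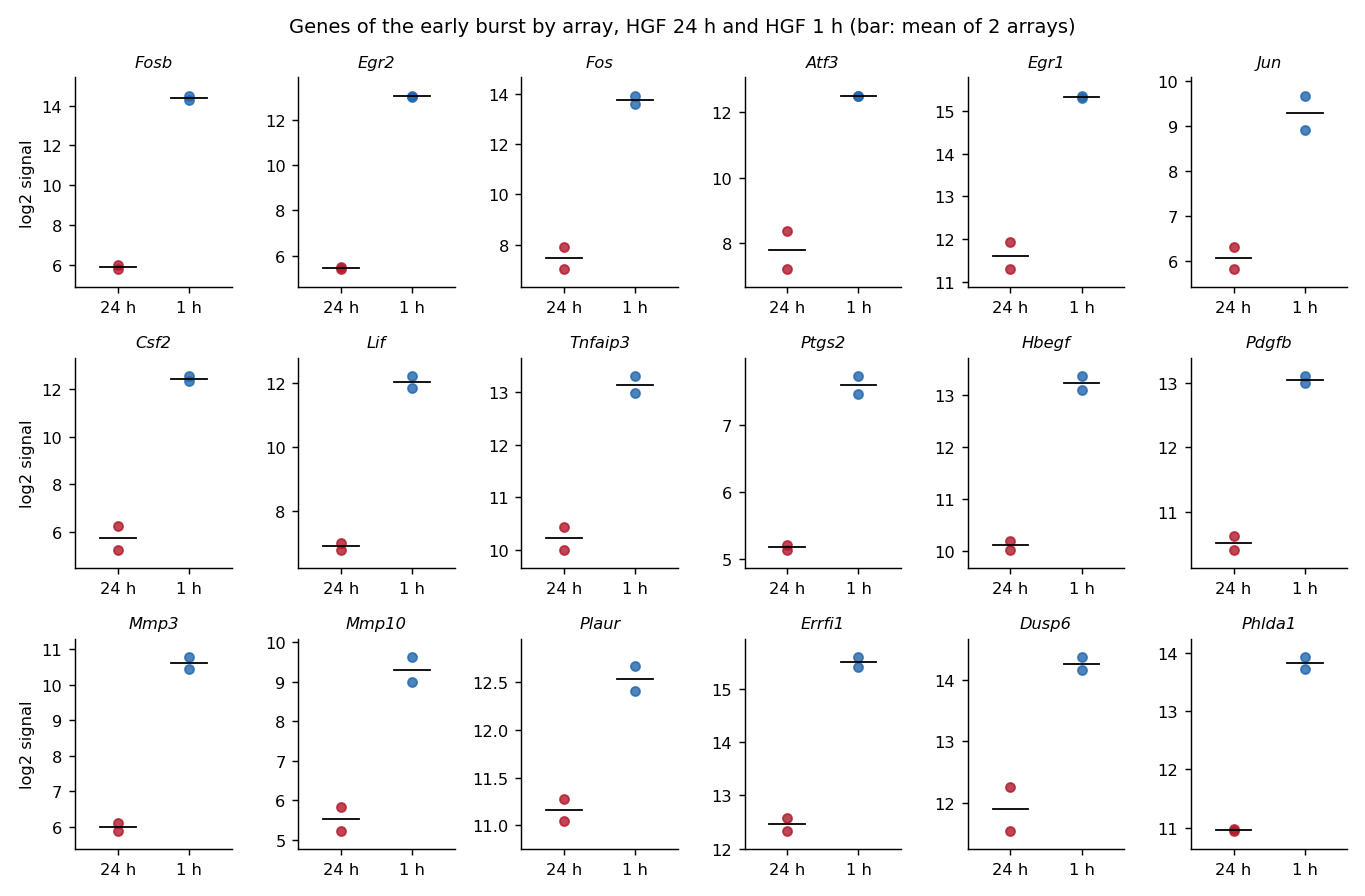
Log2 signal on each array of 18 genes called lower at 24 h. The 24 h arrays (red, left) stand beside the 1 h arrays (blue, right), with a bar at the mean of the 2 arrays. Mmp3 and Mmp10 had higher signals at 6 h than at 1 h. Each panel has its own vertical axis. In every panel both 24 h arrays lie below both 1 h arrays, as in every gene called lower.

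Matrix metalloproteinases of the stromelysin and collagenase kind showed large falls, and 6 h levels above both times. Mmp3, or stromelysin 1, had 69.4 and 59.4 in 24 h cells, against 1755 and 1394 in 1 h cells (-4.61 ± 0.20, adjusted p = 2.88e-05). In control cells it had 245 and 225 and at 6 h 6629 and 9651, so both 24 h arrays lay below both control arrays. Mmp10, or stromelysin 2, was undetected at 24 h (56.8 and 37.7) and read 787 and 510.1 at 1 h, at least 11-fold lower. Mmp13, an interstitial collagenase, had 397 and 2034 at 24 h, against 10678 and 10971 at 1 h (-3.59 ± 0.68, adjusted p = 0.0197). Its 24 h arrays lay far apart, and its call ended without 1 h array a or b (adjusted p of 0.0776 to 0.0887). Plaur, the urokinase receptor, was lower at 24 h (2107 and 2486, against 6499 and 5434 at 1 h, -1.38 ± 0.14).

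In all, 9 of 22 tested protease genes were lower (40.9%) and 2 were higher (9.09%) at 24 h, against 5.14% and 4.15% of all genes. The higher ones were the metalloprotease Adam8 and the inhibitor Timp3. Timp1, a secreted inhibitor of matrix metalloproteinases, was at 3783 and 3593 at 24 h and 2808 and 3204 at 1 h and was not called (adjusted p = 0.234). Ctsh and Ctsl, lysosomal cysteine proteases, were lower, with log2 differences of -1.65 ± 0.28 and -0.92 ± 0.12. Of the lower members, 7 were called without 24 h array a, 5 without 24 h array b, 4 without 1 h array a and 6 without 1 h array b. The higher count was 0 without any 1 of these 4 arrays, 1 without either control array and 3 without either 6 h array, and the call of Ctsh ended without 24 h array b or 1 h array a.

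Among 23 integrin and focal adhesion genes, 2 were lower (8.70%) and 1 higher (4.35%), against 5.14% and 4.15% of all genes tested. The higher one was Itgb7, a leukocyte integrin chain, with 5552 and 6431 in 24 h cells, against 1732 and 2246 in 1 h cells (1.6 ± 0.16, adjusted p = 0.00171). Its signal at 6 h was 1532 and 1709.9 and in control cells 4002 and 3731. The adaptor Bcar1 (-0.82 ± 0.15) and vinculin, Vcl (-0.73 ± 0.16), were lower, but neither call held without 24 h array a, 24 h array b or 1 h array a. The fit with a replicate block called 4 members lower. The laminin receptor chain Itga6 read 207 and 206 at 24 h and 163 and 191 at 1 h, and the hyaluronan receptor Cd44 1769 and 2085 at 24 h and 2593 and 2899 at 1 h. Neither was called (adjusted p of 0.474 and 0.068), and both had higher signals at 6 h than at either time. Of 15 extracellular matrix genes, Col7a1, the anchoring fibril collagen, was the 1 called, and it was higher (0.67 ± 0.14); that call was lost without any 1 of the 4 arrays compared, and with the block Col5a1, a fibrillar collagen, was higher too.

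Targets of serum response factor and of the co-activator YAP, with other actin cytoskeleton genes, were lower in 7 of 25 tested members. Ccn1, a matricellular protein and a target of both pathways, had 493 and 547 at 24 h, against 6059.8 and 6585 at 1 h (-3.60 ± 0.12, adjusted p = 7.56e-06). Its relative Ccn2 had 2337 and 2275 at 24 h and 3289 and 3369 at 1 h and was not called (adjusted p = 0.107). The muscle-type ankyrin repeat protein Ankrd1 (-1.16 ± 0.11), the small GTPase Rhob (-1.65 ± 0.16) and the LIM protein Fhl2 (-1.11 ± 0.17) were lower, and Rnd1, a GTP-binding protein, was undetected at 24 h and at least 2.25-fold lower. With the block 1 member was higher. The lower count was 4 without 24 h array b, where Fhl2 lost its call, and 5 to 7 without any 1 of the others.

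Of 26 junction and keratin genes 2 were lower (7.69%), and of 13 mesenchymal genes 1 was higher (7.69%). The shares of all genes tested were 5.14% lower and 4.15% higher. In the junction and keratin list, Elf3, an epithelial transcription factor, was lower (1108 and 988 at 24 h, against 2235 and 2276 at 1 h), as was plakoglobin, Jup, a dim gene detected on 1 of 2 arrays at 24 h. With a replicate block 8 members were lower and 1 higher, and without 24 h array b none was. Without 1 h array a or 1 h array b 1 was. E-cadherin, Cdh1, read 4563 and 4595 at 24 h and 6154 and 5974 at 1 h (-0.40 ± 0.12, adjusted p = 0.077). Of 13 mesenchymal genes, the intermediate filament vimentin, Vim, was the 1 called, and with the block Fxyd5, a regulator of sodium pumps, was higher too. Vim read 22252 and 23626 at 24 h, against 12566 and 16132 at 1 h (0.69 ± 0.15, adjusted p = 0.031), a call that ended without 24 h array a, 24 h array b or 1 h array a. Sox9, a transcription factor of biliary and progenitor cells, was the 1 marker of that kind called in the fit without a block: 116 and 71.5 at 24 h, against 607 and 448 at 1 h (-2.52 ± 0.32, adjusted p = 0.00501). Both 24 h arrays lay below both control arrays, which had 299 and 169. With the block, the keratins Krt7, Krt18 and Krt19 were lower as well.

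Genes of mitosis had the largest share of members called higher. Of 44 tested members, 29 were higher at 24 h (65.9%) and none was lower, with a median of 0.84 and 42 of 44 differences above 0. Bub1b, a kinase of the spindle checkpoint, had 984 and 949 in 24 h cells, against 466 and 422 in 1 h cells (1.13 ± 0.15, adjusted p = 0.00612). Kif4, a chromosome-bound kinesin, had 2033 and 2155 at 24 h, against 1115 and 1162 at 1 h (0.88 ± 0.11, adjusted p = 0.00551). Tpx2, which targets Aurora A to spindle microtubules, had 1419 and 1761 at 24 h, against 685 and 756 at 1 h. The 2 repeats lay close together in each of these, and the groups did not overlap, as in every called gene.

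Other members called higher were Kif2c, the microtubule-depolymerising kinesin (1.21 ± 0.16), Pttg1, the securin that holds separase inactive (1.6 ± 0.27, detected on 1 of 2 arrays at 1 h), and Sgo1, the protector of centromere cohesion (0.97 ± 0.14). Plk1, a kinase that drives mitotic entry and exit, differed by 1.16 ± 0.19 and Cdc20, an activator of the anaphase promoting complex, by 1.19 ± 0.18. Top2a, the topoisomerase that untangles chromosomes, had 3537 and 2740.5 at 24 h and 1759.7 and 2160.0 at 1 h and was not called (adjusted p = 0.0777). The other groups differed too. Control cells had 979 and 780.0 for Bub1b and 1849.8 and 1719 for Kif4, close to 24 h, and 6 h cells had 329 and 380.0 and 795 and 772, below both times. With a replicate block 35 members were higher. The count fell to 3 without 24 h array a, 12 without 24 h array b, 6 without 1 h array a and 11 without 1 h array b. The calls of Kif2c, Pttg1 and Sgo1 each ended without 24 h array a, those of Pttg1 and Sgo1 also without 1 h array a, and that of Tpx2 without 1 h array a or 24 h array b (adjusted p of 0.0503 to 0.0813 over these).

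**Figure D4:**
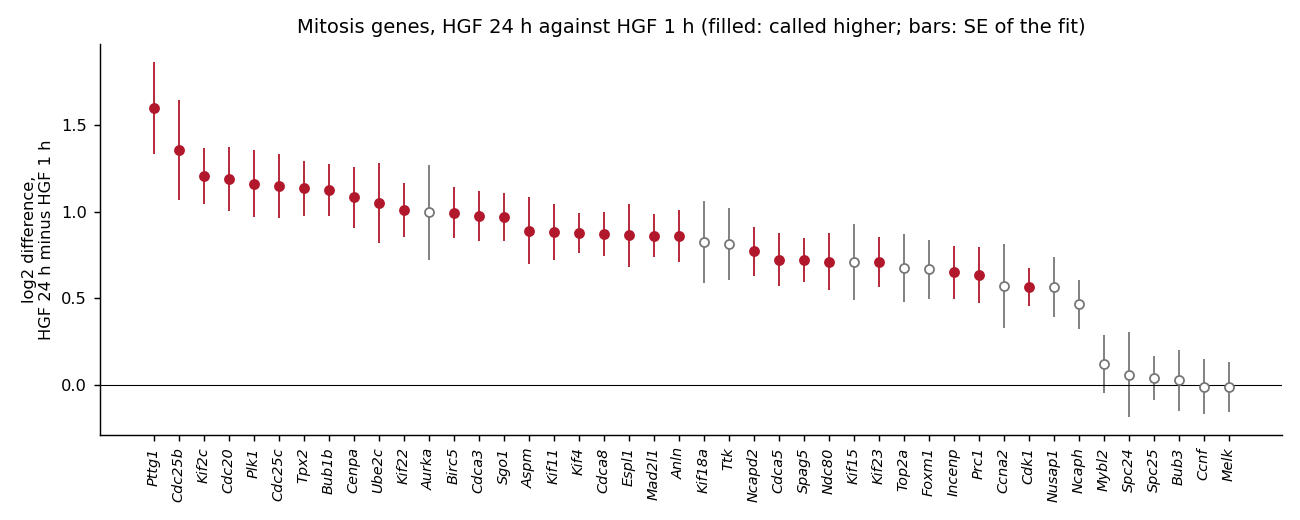
Log2 difference (24 h minus 1 h) of the 44 tested mitosis genes, ordered by size, with bars for the SE of the fit. Filled points are the 29 genes called higher and open points the 15 not called, of which Aurka, Kif18a and Ttk have differences as large as many called genes but wider errors.

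The promoters of 3 mitosis genes are shown for comparison with the early factors, in the same annotation and window. Capitals mark CCAAT, the letters bound by the factor NF-Y, or ATTGG, the same letters on the other strand. TGACG, left in lower case here, is held on the other strand by the window of Kif4, and not by those of Pttg1 and Bub1b.
Pttg1 (chr11:43425982-43426231, minus strand): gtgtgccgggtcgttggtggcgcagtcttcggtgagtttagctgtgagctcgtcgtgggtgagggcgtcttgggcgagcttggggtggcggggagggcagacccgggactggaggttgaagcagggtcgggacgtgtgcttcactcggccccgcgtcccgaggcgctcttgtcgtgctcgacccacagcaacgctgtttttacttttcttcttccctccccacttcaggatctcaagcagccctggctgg
Kif4 (chrX:100625815-100626064, plus strand): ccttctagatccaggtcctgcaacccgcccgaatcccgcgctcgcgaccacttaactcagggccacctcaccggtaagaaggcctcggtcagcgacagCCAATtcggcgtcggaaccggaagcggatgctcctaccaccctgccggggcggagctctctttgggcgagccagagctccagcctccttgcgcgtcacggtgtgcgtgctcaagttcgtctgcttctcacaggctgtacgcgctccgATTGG
Bub1b (chr2:118597961-118598210, plus strand): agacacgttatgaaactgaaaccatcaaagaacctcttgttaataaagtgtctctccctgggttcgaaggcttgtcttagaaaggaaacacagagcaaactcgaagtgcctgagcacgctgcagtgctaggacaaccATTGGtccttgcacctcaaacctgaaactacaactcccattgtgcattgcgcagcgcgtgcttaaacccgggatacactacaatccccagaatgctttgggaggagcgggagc
CCAAT occurred in the windows of 18 of 26 mitosis genes called higher that had a promoter in the table (69.2%), against 41.9% of the genes tested. TTTGAA, the core letters of the cell cycle genes homology region, occurred in 10 of 26 (38.5%), against 12.5%. TGACG occurred in 6 of the 26 (23.1%). A CArG box can contain the letters CCAAT, but none of the 26 windows held a CArG box. The window of Pttg1 held neither CCAAT nor TTTGAA, which says only that these letters are not in those 250 bases.

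DNA replication genes did not share the pattern of mitosis genes in their number of calls: 1 of 46 tested was higher, and their median was 0.20. The 1 gene was Dbf4, the activating subunit of the Cdc7 kinase, with 5407 and 5608 at 24 h, against 3007 and 3201 at 1 h (0.83 ± 0.11, adjusted p = 0.00612). Its call ended without 24 h array b (adjusted p = 0.0508). The difference between the lists was not tested. Mcm5, a subunit of the replicative helicase, read 7526 and 5193 at 24 h and 4917 and 4789 at 1 h, and Ccne2, the cyclin of S phase entry, 124 and 74.4 at 24 h and 76.9 and 104 at 1 h. Neither was called (adjusted p of 0.377 and 0.881). With a replicate block 4 members were higher and 1 lower.

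Of 18 G1 regulators, the Cdk inhibitor Cdkn1a, a target of p53 and of early growth factor signals, was the 1 called without a block; with it, the Cdk inhibitor Cdkn1c was lower and another, Cdkn2b, higher. Cdkn1a had 4465 and 4994 in 24 h cells, against 12084 and 11531 in 1 h cells (-1.32 ± 0.13, adjusted p = 0.00171), and 4027 and 4775 in control cells. Ccnd1, or cyclin D1, was bright and nearly level at 34436 and 30319.6 after 24 h and 33544 and 28841 after 1 h (0.05 ± 0.14, 95% interval -0.28 to 0.39). Regulators of p53 and apoptosis were lower in 6 of 27 tested members (22.2%) and higher in 1 (3.70%), against 5.14% and 4.15% of all genes. The survival factor Mcl1 had 7500.0 and 7834 at 24 h, against 16481 and 17735 at 1 h (-1.16 ± 0.12), and the stress proteins Gadd45b and Gadd45g were lower, with log2 differences of -1.38 ± 0.21 and -1.19 ± 0.24. The lower count was 2 without any 1 of the 4 arrays compared, and the higher count was 0 without any of these or either control array. The p53 ubiquitin ligase Mdm2 was lower with a log2 difference of -0.63 ± 0.13, which was -0.28 and not called when its probes were averaged.

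Clustered histone genes split by class: of 37 tested, 10 were higher and 10 lower at 24 h. Among 12 H2A genes, 9 were higher and 1 lower, with a median of 0.97. H2ac12 had 14894 and 11565 at 24 h, against 6283 and 4358 at 1 h (1.33 ± 0.22), while H2ac18 had 521 and 521 at 24 h, against 982 and 1026 at 1 h (-0.95 ± 0.12). None of 7 H4 genes was higher and 4 were lower, among them H4c8 (-1.01 ± 0.16) and H4c11 (-0.81 ± 0.11). Of 10 H2B genes, 2 were lower, of 7 H3 genes, 2 were lower and 1 was higher, and the 1 linker gene tested was lower. These copies are nearly identical in sequence, so a probe can read several of them, and the values of single copies are uncertain. Higher calls numbered 0 without 24 h array a or 1 h array b, 3 without 24 h array b or 1 h array a, and 5 without either 6 h array. Lower calls numbered 2 without either 24 h array and 3 without either 1 h array.

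Genes of the circadian clock were lower in 5 of 15 tested members (33.3%, against 5.14% of all genes). With a replicate block 1, Ciart, was higher. Per1 and Per2, repressors of the circadian feedback loop, had 237 and 379.8 and 934 and 864 at 24 h, against 979 and 1084 and 2616 and 2360.3 at 1 h. Their differences were -1.78 ± 0.22 and -1.47 ± 0.14 (adjusted p of 0.00501 and 0.00141). The nuclear receptor Nr1d1 (-1.55 ± 0.13) and the repressor Nfil3 (-0.92 ± 0.22) were lower as well. The call of Nfil3 ended without each of 7 of the 8 arrays. For Per2, control cells had 1198 and 986 and 6 h cells 402 and 377, so that the level was lowest at 6 h. FoxO-linked starvation genes had a median of -0.05, with 11 of 21 below 0. The clock gene Per1 was the 1 lower member, and 2 were higher: Fbxo32, a ubiquitin ligase of atrophy, at 211 and 207 after 24 h, against 79.6 and 126 after 1 h (1.06 ± 0.20), and the p53 and FoxO target Sesn1 (0.53 ± 0.13). Neither of the higher calls held without 24 h array a, 24 h array b or 1 h array a, and that of Sesn1 was also lost without 1 h array b or either control array.

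Genes of the amino acid response and serine synthesis were on the higher side in 26 of 35 tested members, with a median of 0.45, but 5 passed the test. Psat1, a transaminase of serine synthesis, had 18652 and 16703 in 24 h cells, against 9498 and 10157 in 1 h cells (0.85 ± 0.15, adjusted p = 0.0136). Shmt2, the mitochondrial serine hydroxymethyltransferase, had 3103 and 3433 at 24 h, against 1525 and 1886 at 1 h (0.94 ± 0.15, adjusted p = 0.0106). Phgdh, the first enzyme of serine synthesis, Aldh18a1, an enzyme of proline synthesis, and Wars, the tryptophanyl tRNA synthetase, were higher by 0.78 ± 0.19, 0.88 ± 0.22 and 0.76 ± 0.15. With a replicate block 16 members were higher and 2 lower. None was called without 24 h array a, 24 h array b or 1 h array a, and 2 were without 1 h array b.

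Housekeeping metabolism gave almost no calls. None of 18 cholesterol genes, 20 fatty acid genes, 23 glycolysis and hypoxia genes and 67 respiratory chain and ATP synthase genes was called in the fit without a block, and their medians lay between -0.04 and 0.03. With the block, 1 cholesterol gene was higher, 1 fatty acid gene and 4 glycolysis genes were lower, and 1 respiratory chain gene was called each way. Hmgcs1, an enzyme of cholesterol synthesis, read 29459 and 29459 at 24 h and 38572 and 40066 at 1 h (adjusted p = 0.0749). Of 48 ribosome biogenesis genes, Pes1 was lower (-0.67 ± 0.13), and of 43 cytosolic ribosomal protein genes, Rps2 was higher (0.53 ± 0.12). Each of these calls ended without 24 h array a, 24 h array b or 1 h array a. With the block, 2 ribosome biogenesis genes were higher.

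Lysosomal genes were on the lower side in 24 of 29 tested members, with a median of -0.36, and 5 were called lower. Ctsh had 2490.3 and 1601 at 24 h, against 7581 and 5181 at 1 h (-1.65 ± 0.28, adjusted p = 0.0124), and Gaa, the acid glucosidase, had 1219.9 and 1436 at 24 h, against 2016 and 1904 at 1 h (-0.57 ± 0.13). Pairing by replicate block gave 13 lower. Without single arrays 1 to 3 were, for the 6 h and control arrays as well as for the arrays compared. Among glutathione and antioxidant genes 7 of 29 were lower (24.1%) and 2 higher (6.90%), against 5.14% and 4.15% of all genes. The metallothioneins Mt2 and Mt1 had 66.8 and 81.6 and 28725 and 31549 at 24 h, against 480.0 and 243 and 51231 and 51086 at 1 h (-2.21 ± 0.29 and -0.77 ± 0.13). Glutathione transferases of the alpha class went both ways: Gsta1 had 533 and 757 at 24 h, against 272 and 217 at 1 h (1.39 ± 0.20), and Gsta4 2767 and 3024 at 24 h, against 5380.0 and 4492 at 1 h (-0.77 ± 0.15). These are close relatives, and a probe of one may read another. The lower count of the antioxidant list was 1 without 24 h array a, 24 h array b or 1 h array a and 4 without 1 h array b, and the higher count was 1 without any 1 of these 4.

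Smaller counts came from 3 more lists. Of 17 tested TGF-beta and BMP response genes, 3 were lower (17.6%), against 5.14% of all genes tested, and the list median was -0.06. The 3 were the Smad corepressors Skil (-1.17 ± 0.13) and Tgif1 (-1.0 ± 0.22) and the inhibitory Smad6 (-0.86 ± 0.12). The count was 1 without either 24 h array and 2 without either 1 h array. Of 19 interferon-stimulated genes, Ifi27 (-0.60 ± 0.12) and Tap1 were lower (10.5%), Tap1 being undetected at 24 h and at least 1.07-fold lower. Of 18 ER chaperone genes the co-chaperone Dnajb9 was lower (-0.94 ± 0.19), 5.56% of the list and near the 5.14% of all genes. Neither interferon gene was called without any 1 of the 4 arrays compared, and Dnajb9 was not called without 24 h array a, 1 h array a or 1 h array b. Without either 6 h array, 2 ER genes were called lower, as in the fit with a block, where 1 interferon gene was higher.

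Several of the steepest rises belonged to none of these lists. S100a7a, an epidermal calcium-binding protein, had 1097 and 1318 in 24 h cells, against 80.3 and 337 in 1 h cells (2.87 ± 0.67, adjusted p = 0.0381). The 1 h arrays lay far apart, and without 1 h array a the difference was 1.83. The call ended without that array or without either 24 h array (adjusted p of 0.132 to 0.155). Cdsn, corneodesmosin of cornified epithelia, had 211 and 576 at 24 h, against 59.1 and 64.5 at 1 h (2.50 ± 0.55), and its call ended without 24 h array b, 1 h array a or 1 h array b. Clca3b, of the calcium-activated chloride channel regulator family, had 9899 and 9188 at 24 h, against 1979.7 and 3055 at 1 h (1.96 ± 0.19, adjusted p = 0.00167). This call held without any 1 array.

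Others of these were the neuronal growth cone protein Gap43, undetected at 1 h and at least 2.36-fold higher at 24 h, the receptor activity modifying protein Ramp3 (1.85 ± 0.36) and the homeobox factor Otx1 (1.67 ± 0.21). Otx1 read 482 and 372 at 24 h, against 121 and 147 at 1 h. The caveolar protein Cavin2 had 3229 and 2329.6 at 24 h, against 918 and 964 at 1 h (1.54 ± 0.21), and the glutathione transferase Gsta2 differed by 1.9 ± 0.30. Cox6a2, the muscle isoform of a cytochrome oxidase subunit, was higher by 1.6 ± 0.40, but by 0.95 and without a call when 24 h array b was left out, and the call ended without 7 of the 8 arrays in turn. The calls of Urah, the hydroxyisourate hydrolase (1.61 ± 0.36), and of the zinc finger gene Zkscan14 (1.57 ± 0.26) ended without 24 h array a, 24 h array b or 1 h array b, and that of Urah also without 1 h array a. The call of Gap43 ended without 24 h array a, that of Ramp3 without 24 h array a or 1 h array a, and that of Gsta2 without 24 h array b or 1 h array b. On the lower side, outside the lists, stood Tcim, a small regulator of Wnt signalling, with 425 and 419 at 24 h, against 5067 and 4344 at 1 h (-3.47 ± 0.13), and the stress kinase Plk3, with 229 and 361 at 24 h, against 2551 and 3423 at 1 h (-3.36 ± 0.33).

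The levels of the called genes in control and 6 h cells are given as a description, since each called gene was chosen on its 24 h and 1 h arrays. Of the 411 genes lower at 24 h, the control mean lay nearer to the 24 h mean than to the 1 h mean in 250 (60.8%), and of the 192 with a fitted difference of at least 2-fold, in 139 (72.4%). Of the 332 higher genes it lay nearer to 24 h in 213 (64.2%). Over all genes tested the share was 49.0%. The 6 h mean was nearer to 24 h in 253 of the lower genes (61.6%) and 172 of the higher ones (51.8%), against 53.3% of all genes. Single genes took different courses. Egr2 and Csf2 were high at 1 h alone or mainly, Mmp3 and Mmp13 were higher at 6 h than at 1 h, and Edn1 was low at 1 h alone. Itgb7 and Bub1b were lower at 1 h and 6 h than in control cells, and Gsta1 was higher at 24 h than at any other time on both arrays.

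**Figure D5:**
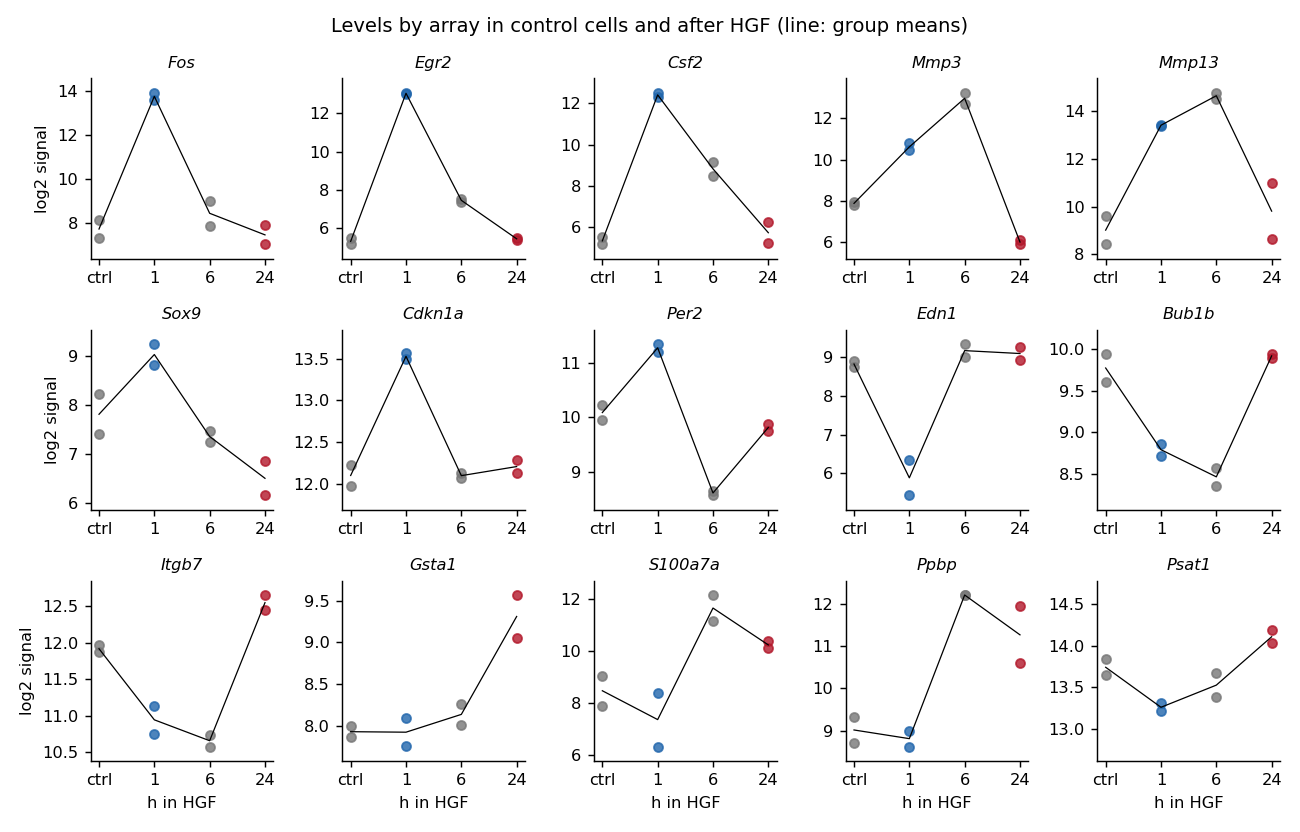
Log2 signal of 15 genes on each array, in control cells and after 1, 6 and 24 h of HGF, with lines through the group means. Times are spaced evenly and not to scale, control and 6 h are in grey, 1 h in blue and 24 h in red, and each panel has its own vertical axis.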

How the data were processed

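RNA of MLP-29 cells was measured on 8 single-colour Illumina arrays, 2 in each of 4 groups. Per the file headers, the authors deposited for each of the 25697 probes an intensity on a linear scale that was not normalized, with a detection p-value, which compares the probe with negative control beads. The authors also deposited a table of normalized intensity, which served as an alternative; the sources used here do not give its method. The submitters' processing notes name GenomeStudio 1.9.0.

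Probes took names from the platform annotation supplied with the data (23978 with 1 symbol, 1719 without, none with several), of which 23962 matched a current gene table by gene identifier. Raw intensities were corrected for background by normexp from the detection p-values (offset 16) in limma 3.58.1 under R 4.3.3, then quantile normalized and converted to log2 values. Changes of dim genes are understated on that scale. Each gene was represented by its brightest probe that passed detection; of 2170 genes with several probes, 0 had probes called in opposite directions. The contrast of HGF 24 h minus HGF 1 h was fitted by lmFit and eBayes over all 8 arrays without a block (4 residual degrees of freedom) and adjusted by Benjamini-Hochberg over 7991 genes. A gene undetected on both arrays of 1 group was given a lower bound on its fold change, the brighter group's mean against the dim group's, in which an array's value was raised to its lowest detected signal where the gene lay under that. The number of arrays limits the precision. Each p-value sets a difference between 2 groups against the spread between repeats within all 4 groups, shared in part across genes.

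The comparison, its gene lists and the named genes were chosen with earlier results of these data known, so lists are described by counts and medians. Named genes are the 15 steepest called differences each way, up to 5 called genes of each list, by adjusted p, and a set of 48 genes. Of that set, Hgf and Spry2 were undetected, Plau did not pass detection, Ccnb1 had no named probe, and another gene is not reported here. Chosen with values in view, outside that rule, were Igfbp3, Adam8, Timp3, Plk1, Cdc20, Aurka, Kif18a, Ttk, the markers and genes called only with the block below. Across genes, the a minus b differences of any 2 groups correlated at 0.192 to 0.449, so a second fit took the letters to pair the samples. The labels tell of a repeated experiment without tying a letter to 1 repeat in every group. Values from the fit with this block stand beside a result whose call or count (by over 1.5 times) they alter. Unless stated otherwise, differences, SEs and adjusted p-values are from the fit without a block, which ignores that pairing. Alternatives were other background, scaling, detection and probe rules, the authors' table, the 4 arrays alone, array weights and leaving out each array. In data simulated over 7991 genes, 67 of 100 genes changed by 1 on the log2 scale and 93 of 100 changed by 2 were recovered. There were 6 false calls. The simulated noise was independent between arrays, unlike the correlated a minus b differences above. These figures therefore need not hold for the real calls. Promoters are from RefSeq (GRCm38.p6), which held 93 of 124 named genes. Figures were drawn with matplotlib 3.10.9.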

Additional observations from a re-analysis of the deposited data

How the results depend on the processing

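Of 111 named genes called, 54 kept their call under all 20 alternatives that gave them a value, 57 lost it without at least 1 array, and 0 changed sign while called. Leaving out single arrays gave 39 to 293 higher and 130 to 390 lower genes, against 332 and 411. The lowest counts came without 24 h array a, where 1 array stands for its time. The arrays scaled by their medians gave 181 higher and 252 lower genes. No filter on dim genes gave 214 higher genes over 16593 tested, and the 4 arrays alone also gave 214. The paired fit with a replicate block called 569 higher and 659 lower; of the named genes it changed only the call of Myc. Without background correction, the differences of 17 called genes near the detection limit, among them Ptgs2 (-1.38), Nppb (-2.56) and Pttg1 (0.87), were smaller by over 1.5 times, and the call of Tap1 ended. The causes were not tested. Genes near background have only a bound or a compressed difference.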

Other observations

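Genes grouped by the stem of their symbol, chosen after their values were seen, gave further sets, some of whose members are also in the lists above. The sets described come from 49 such families, and their counts without single arrays were not taken. Of 15 tested Rad genes, 4 were higher at 24 h than at 1 h (26.7%) and none was lower, with 12 of 15 differences above 0. Over all genes tested the shares were 4.15% higher and 5.14% lower. Rad52, a mediator of homologous recombination, read 719.9 and 818 in 24 h cells, against 499 and 412 in 1 h cells (0.76 ± 0.14, adjusted p = 0.0176 in limma). Rad51d, another recombination gene, had 139.9 and 127 at 24 h, against 81.9 and 74.9 at 1 h (0.77 ± 0.12). The ubiquitin ligase Rad18 and the checkpoint clamp subunit Rad1 differed by 0.70 ± 0.13 and 0.73 ± 0.18 (adjusted p of 0.0176 and 0.0480 in limma). Of 26 tested Trim genes, 4 were higher (15.4%) and 1 lower (3.85%), with Trim45 the steepest rise (411 and 373 at 24 h, against 192.0 and 192.2 at 1 h), and 2 were lower with a replicate block.

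Zinc finger genes with Zfp symbols went both ways, 9 higher (5.73%) and 10 lower (6.37%) of 157 tested, against 4.15% and 5.14% of all genes. The lower ones include the mRNA decay factors Zfp36 and Zfp36l1, already described above. With a replicate block 19 were higher and 11 lower, against 569 and 659 of all 7991 genes, and 112 of the differences lay above 0. Zfp94 had 286 and 290.2 in 24 h cells, against 105 and 97.6 in 1 h cells (1.51 ± 0.19), and Zfp948 had 112 and 82.4 at 24 h, against 426 and 294 at 1 h (-1.88 ± 0.29). Among solute carriers, 2 of 151 were higher (1.32%) and 5 lower (3.31%), both under the shares of all genes, and with a replicate block 4 were higher and 13 lower. Slc25a25, a mitochondrial ATP-Mg and phosphate carrier, read 335 and 415 at 24 h, against 1222 and 1106 at 1 h (-1.64 ± 0.15, adjusted p = 0.00141). None of 46 Rab GTPases and 1 of 44 large-subunit mitochondrial ribosomal proteins was called, in limma at the same threshold. With the block 1 Rab gene was. Differences lay above 0 in 25 of the 46 and in 38 of the 44. The medians were 0.03 and 0.16, against 0.04 over all genes tested.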
